A study of Mus musculus with 15 samples.

Results

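Interferon-γ induced GTPases are enzymes of cell-autonomous defence, and the 10 genes described here are Gbp2, Gbp3, Gbp4, Gbp5, Gbp6 and Gbp7 of the guanylate-binding protein (GBP) family and Irgm1, Irgm2, Igtp and Iigp1 of the immunity-related GTPase (IRG) family. They were chosen by name, and each was found once among the 46679 genes of the deposited tables through its mouse Ensembl identifier. As background, interferon-γ binds the receptor made of Ifngr1 and Ifngr2, the kinases Jak1 and Jak2 then signal to the nucleus, where GAS elements mark genes that respond, among them the gene of the transcription factor Irf1. Irf1 and the type I interferon factor complex with Irf9 bind a related element, the ISRE, so these genes can also respond to type I interferon. GBPs assemble on the membranes of pathogen vacuoles and on bacteria in the cytosol and promote inflammasome responses. Among the IRG proteins, Irgm1, Irgm2 and Igtp (also called Irgm3) are regulators that sit on the cell's own membranes and hold effectors such as Iigp1 (also called Irga6) inactive there.

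The levels were compared over naïve brain and 4 syngeneic brain tumors of C57BL/6 mice, with 3 mice in each of the 5 groups and 15 RNA sequencing libraries in all. CT2A (with wild-type p53) and GL261 (mutant for K-ras and p53) are lines induced by methylcholanthrene, 005 arose from H-ras and AKT activation in p53+/- mice, and Mut3 arose from inactivation of NF1 and p53. All lines had been transduced with GFP and firefly luciferase (CT2A, GL261 and Mut3 were sorted for GFP, and 005 was selected with puromycin), which naïve brain lacks. Mice aged 6 to 8 weeks received 500000 Mut3 cells, or 100000 cells of any other line, and tumors were taken at the endpoint after perfusion with PBS, so cell dose and line cannot be told apart for Mut3.

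Gbp5, Gbp7, Gbp3 and Gbp2 lie in 1 cluster on chromosome 3 in mouse build GRCm38 (GENCODE M21), on the plus strand within 144 kb, with their relative Gbp2b between Gbp3 and Gbp2. Gbp5 covers 142493978 to 142522344, Gbp7 142530342 to 142550149, Gbp3 142560026 to 142573209 and Gbp2 142620602 to 142638008. Gbp4 (105115767 to 105139586) and Gbp6 (105270702 to 105293698) lie on the minus strand of chromosome 5. On chromosome 11, Irgm1 covers 48861968 to 48871683 on the minus strand, Igtp 58199556 to 58207591 on the plus strand and Irgm2 58199618 to 58222782 on the same strand, and Iigp1 lies apart from these clusters. The annotated models of Igtp and Irgm2 overlap on 1 strand, as do those of Gbp4 and its relatives Gbp8 and Gbp9, so reads in the shared stretches could be divided between these genes in more than 1 way.

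RefSeq start sites (GRCm38.p6) were matched for 7 of the genes, with 8 promoter windows of 250 bases before to 50 bases after a start. The ISRE core (GAAA, any 2 bases and GAAA) and the GAS element (TTC, any 3 bases and GAA) were searched on both strands. All 7 genes held an ISRE core in at least 1 window, against 3.44% of all 32851 promoters of that length, and 4 of them (Gbp5, Gbp7, Igtp and Irgm2) also held a GAS match, against 8.3% of all promoters. Both motifs together were found in 0.45% of all promoters. The stretches with the matches are shown because they are the sequence feature that these genes share, with all matches in capitals, each read 5′ to 3′ on the strand of its gene and ending before the RefSeq start.
Igtp, chr11:58199496-58199546, plus strand: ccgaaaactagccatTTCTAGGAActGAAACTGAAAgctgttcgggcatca
Irgm2, chr11:58214887-58214937, plus strand: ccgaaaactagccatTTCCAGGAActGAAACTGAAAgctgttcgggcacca
Irgm1, chr11:48871421-48871465, minus strand: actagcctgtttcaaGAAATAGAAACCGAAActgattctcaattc
Gbp2, chr3:142620589-142620628, plus strand: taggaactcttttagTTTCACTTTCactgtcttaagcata
Gbp3, chr3:142559984-142560029, plus strand: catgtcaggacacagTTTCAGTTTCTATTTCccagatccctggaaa
Gbp7, chr3:142530215-142530307, plus strand: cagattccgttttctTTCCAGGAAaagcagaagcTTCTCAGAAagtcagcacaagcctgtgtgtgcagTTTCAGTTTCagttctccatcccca
Gbp5, chr3:142496684-142496905, plus strand: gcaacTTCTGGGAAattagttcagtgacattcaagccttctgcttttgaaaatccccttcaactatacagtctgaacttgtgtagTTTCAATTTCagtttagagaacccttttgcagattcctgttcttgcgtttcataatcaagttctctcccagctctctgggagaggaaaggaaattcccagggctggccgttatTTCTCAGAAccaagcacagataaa
Igtp and Irgm2 carried a GAS match 2 bases before an ISRE core, and their 51-base stretches were identical at 49 positions. Irgm1 and Gbp3 each held a pair of ISRE cores that overlap by 4 bases, and Gbp5 and Gbp7 each held 2 GAS matches and 1 ISRE core. In the 4 GBP genes the ISRE core lay on the opposite strand, so that it is printed as TTTC, any 2 bases and TTTC, whereas in the 3 IRG genes it lay on the strand of the gene. Among the other gene lists used below, an ISRE core was found in 9 of 15 type I interferon target genes with a promoter in the table, in 5 of 7 other GBP and IRG genes, in 2 of 9 other interferon-γ targets, in 0 of 7 ATG8 genes, in 0 of 5 inflammasome genes, in 1 of 10 genes of interferon-γ signalling and in 0 of 10 large GTPases that are not interferon-induced. A match describes these letters and is no measure of binding.

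Total counts ranged from 3105119 to 5161132 per library in naïve brain and from 5380395 to 13130158 in the tumors. Levels are given as CPM, counts scaled to library size with TMM, and a floor of 3 counts corresponded to between 0.214 and 0.811 CPM in different libraries, for counting error only. The mitochondrial share was 15% to 24% in naïve brain, 17.8% in 005 replicate 3 and 11.3% in GL261 replicate 2, with 7.59% or less elsewhere. The following points bear on the values below. 005 replicate 2 stood above the other 005 libraries in every one of the 10 genes, by 2.47-fold to 13.8-fold over replicate 1 and by 4.88-fold to 16.2-fold over replicate 3. 005 replicate 3 carried neuronal RNA, with summed levels of 5 neuron markers of 351 TPM (a level per transcript length, scaled to the same sum in each library) against 32.3 and 10.3 TPM in the other 005 tumors and 513 to 590 TPM in naïve brain. The same sum was 116 TPM in GL261 replicate 2, against 35.8 and 69.3 TPM in the other GL261 tumors. It was 63.2 TPM in CT2A replicate 1, against 9.01 and 10.8 TPM in the other CT2A tumors. Mut3 replicate 3 was the highest Mut3 library for all 10 genes, 1.78-fold to 7.20-fold above replicate 1. In tumor tissue taken as a whole, more cells of a type and more RNA per cell cannot be told apart.

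**Figure D1:**
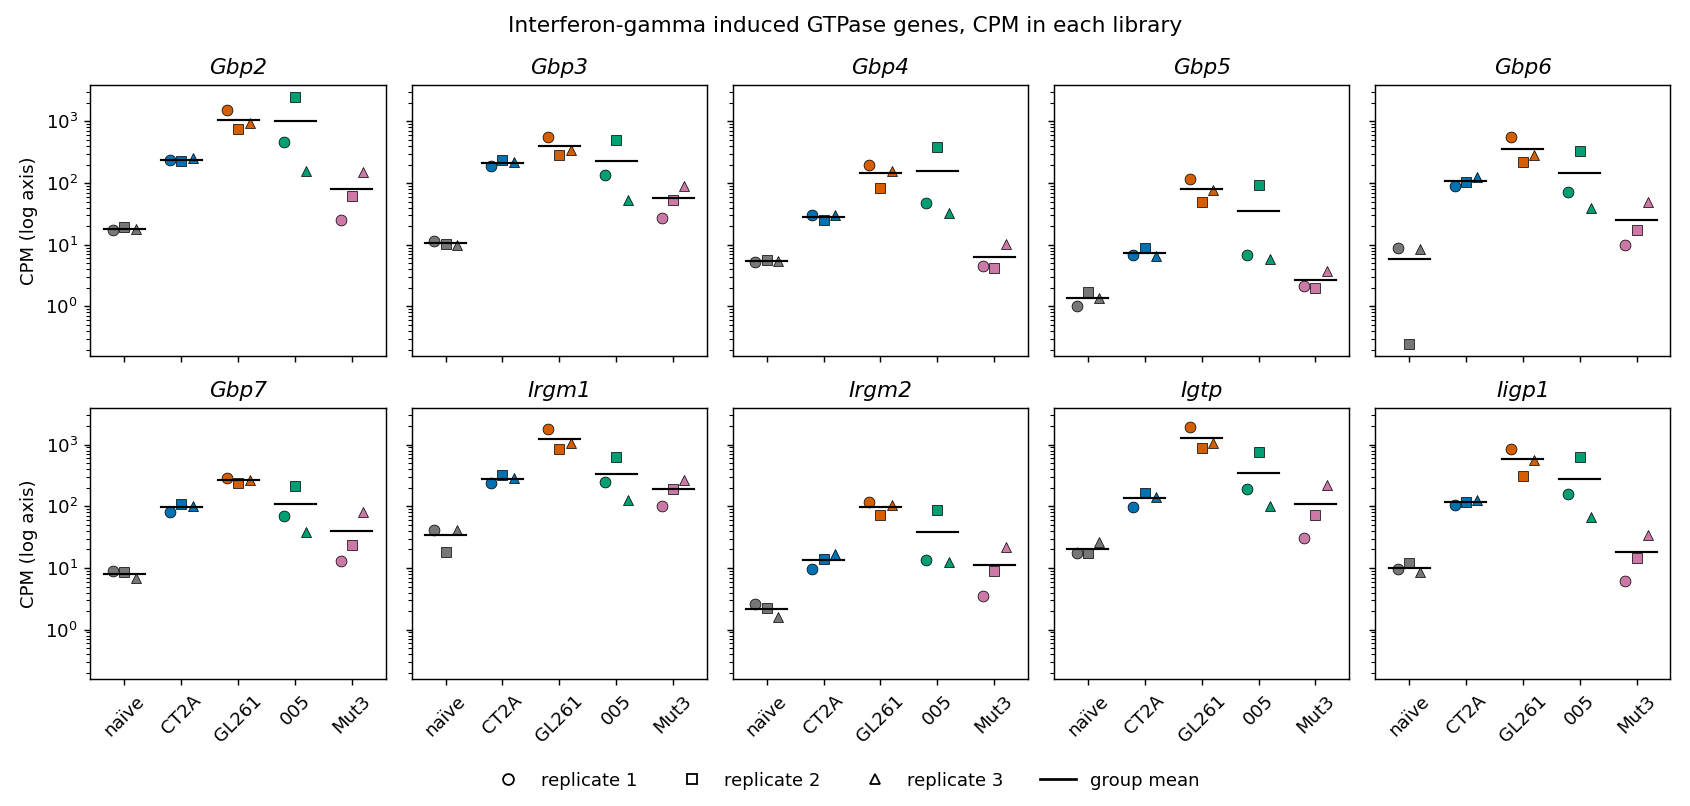
Level of each GTPase gene in CPM (log axis) in the 15 libraries, by group; circles, squares and triangles are replicates 1, 2 and 3, and bars are group means. GL261 libraries lie above all CT2A libraries for each gene, 005 replicate 2 lies above the other 005 libraries, and Gbp6 is near 0 in naïve replicate 2 (0.249 CPM).

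The first question was how each tumor differed from naïve brain. All 10 genes were higher in CT2A, in GL261 and in 005, and 6 of 10 were higher in Mut3, and none was lower in any tumor. DE (differential expression) here means an adjusted p below 0.05 in edgeR's quasi-likelihood test, with Benjamini-Hochberg adjustment over the 17481 genes tested, together with a log2 fold change of 1 or more in either direction. All 10 genes passed the filter on low counts. By the same rule, 19.0% of all tested genes were DE higher in CT2A and 20.2% lower. These shares were 14.6% and 7.77% in GL261, 11.6% and 1.05% in 005, and 17.9% and 19.8% in Mut3, and 5.23% of genes were higher in all 4 tumors. The median log2 fold change of the 10 genes was 5.65 in GL261, 4.53 in 005, 3.29 in CT2A and 2.21 in Mut3, against medians of −0.08, 0.01, −0.04 and 0.11 over all tested genes. Without 005 replicate 2 the median in 005 was 2.86, below that of CT2A, and without Mut3 replicate 3 the median in Mut3 was 1.203. Every tumor library lay above every naïve library for all 10 genes in CT2A (27.7% of all tested genes), GL261 (23.7%) and 005 (16.8%), and for 8 genes in Mut3 (27.4%). All 10 genes also differed among the 5 groups as a whole, as did 52.1% of all tested genes.

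**Figure D2:**
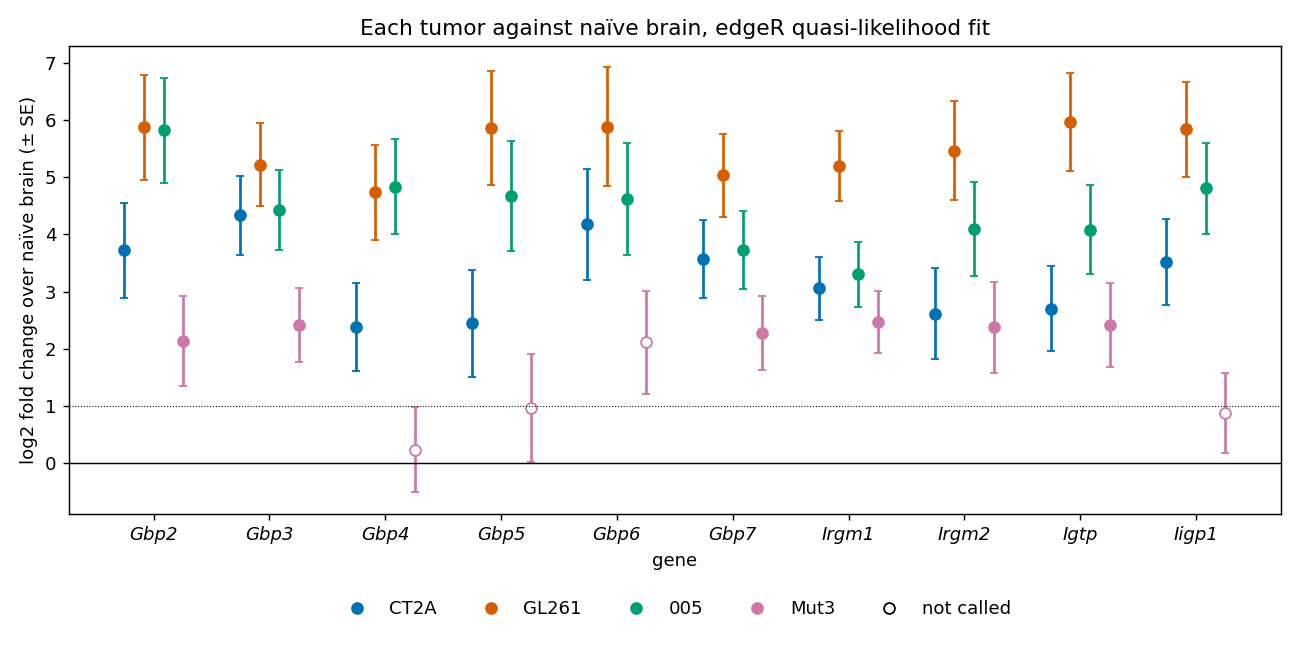
Log2 fold change of each gene over naïve brain (points) with its SE (bars) in the 4 tumors; open points were not DE and the dotted line marks a log2 fold change of 1. GL261 and 005 values lie between 3.30 and 5.97, and the Mut3 values of Gbp4, Gbp5, Gbp6 and Iigp1 were not DE.

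Of the GBP genes, Gbp2, which is recruited to pathogen vacuoles, was at 17.3, 19.4 and 17.8 CPM in naïve brain and at 236, 229 and 255 CPM in CT2A. It reached 1540, 742 and 929 CPM in GL261 and 471, 2463 and 157 CPM in 005, and was at 24.8, 61.3 and 154 CPM in Mut3. Every tumor library thus lay above every naïve library, and the 2463 CPM of 005 replicate 2 was the highest value of any of the 10 genes in any library. The log2 fold change over naïve brain was 5.88 (SE 0.92, adjusted p = 0.00084) in GL261, 5.82 (SE 0.92, adjusted p = 0.0019) in 005, 3.72 (SE 0.84, adjusted p = 0.0042) in CT2A and 2.14 (SE 0.79, adjusted p = 0.042) in Mut3. The call in Mut3 was lost without Mut3 replicate 3 (log2 1.22, adjusted p = 0.25), without any 1 naïve library (adjusted p from 0.075 to 0.11), and without Mut3 replicate 2, any 1 CT2A library or GL261 replicate 2 or 3 (adjusted p from 0.051 to 0.057). It was also lost with the replicate block (adjusted p = 0.068) and on log2(TPM + 1) (adjusted p = 0.36). Gbp3, from the same cluster, ranged from 10.005 to 11.4 CPM in naïve brain, from 190 to 232 in CT2A, from 287 to 565 in GL261, from 53.8 to 504 in 005 and from 26.9 to 89.5 CPM in Mut3. Its rise in CT2A was the steepest of the 10 genes there, at a log2 fold change of 4.33 (SE 0.70, adjusted p = 0.00072). Gbp7 ranged from 6.76 to 8.98 CPM in naïve brain, from 81.6 to 107 in CT2A, from 238 to 288 in GL261, from 38.7 to 216 in 005 and from 12.98 to 80.5 CPM in Mut3, and was higher in all 4 tumors, by log2 2.27 (SE 0.65, adjusted p = 0.013) in Mut3 up to log2 5.03 (SE 0.72, adjusted p = 0.00048) in GL261. In Mut3, Gbp7 was not DE without replicate 3 (log2 1.16, adjusted p = 0.12).

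Gbp5, known for its part in inflammasome activation, was low in naïve brain, at 1.02, 1.74 and 1.35 CPM. It was at 6.84, 9.005 and 6.59 CPM in CT2A, 115, 49.9 and 76.2 CPM in GL261, 6.80, 93.7 and 5.77 CPM in 005 and 2.13, 2.01 and 3.78 CPM in Mut3. In 005 the high mean therefore rested on replicate 2, while the other libraries, at 6.80 and 5.77 CPM, lay near those of CT2A. The log2 fold change was 2.44 (SE 0.93, adjusted p = 0.048) in CT2A. That call was lost with the replicate block (adjusted p = 0.053), plain library sizes (adjusted p = 0.064) and log2(TPM + 1) (adjusted p = 0.62). It was also lost without any 1 naïve or CT2A library, GL261 replicate 2 or 3, or Mut3 replicate 2. The log2 fold change was 5.87 (SE 1.00, adjusted p = 0.0014) in GL261, and in Mut3 it was 0.96 (SE 0.94, adjusted p = 0.44), which was not DE.

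Gbp4 and Gbp6, on chromosome 5, were not DE in Mut3. Gbp4 was at 5.30, 5.73 and 5.41 CPM in naïve brain, 29.9, 25.5 and 30.5 CPM in CT2A, 199, 82.6 and 158 CPM in GL261, 47.1, 391 and 32.3 CPM in 005 and 4.59, 4.15 and 10.5 CPM in Mut3. Mut3 thus overlapped naïve brain, with a log2 fold change of 0.23 (SE 0.75, adjusted p = 0.83), while GL261 and 005 gave 4.74 (SE 0.83, adjusted p = 0.0016) and 4.83 (SE 0.83, adjusted p = 0.0024). Gbp6 was at 8.98, 0.249 and 8.38 CPM in naïve brain, where the second value is 1 count, and at 90.5, 105 and 126 CPM in CT2A. It was at 554, 217 and 281 CPM in GL261, 71.8, 326 and 39.1 CPM in 005 and 9.85, 17.5 and 49.0 CPM in Mut3. The groups did not overlap in Mut3 either, but its log2 fold change of 2.11 (SE 0.90, adjusted p = 0.075) was not DE by edgeR. It was DE by DESeq2 (2.16, adjusted p = 0.037), with no filter on low counts (adjusted p = 0.027) and without 005 replicate 2 (adjusted p = 0.039) or 005 replicate 3 (adjusted p = 0.045). Gbp6 counted together with its relative Gbp10 gave 3 counts in that naïve library, against 44 and 31 in the others. The relative Gbp9 was at 2.99 CPM there, against 0.204 and 0.270 CPM in the others. How reads were divided among relatives cannot be checked from values per gene and was not tested. The naïve level of Gbp6, and its folds over naïve brain, are therefore uncertain.

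Of the IRG regulators, Irgm1, which acts on the cell's own membranes and in autophagy, was at 41.4, 18.4 and 41.4 CPM in naïve brain, 238, 317 and 288 CPM in CT2A and 1783, 860 and 1079 CPM in GL261. It was at 251, 620 and 127 CPM in 005 and at 102, 194 and 267 CPM in Mut3. All tumor libraries lay above naïve brain, and the log2 fold change in Mut3, 2.47 (SE 0.54, adjusted p = 0.0030), was the largest of the 10 genes in that tumor. Igtp was at 17.5, 17.4 and 26.8 CPM in naïve brain, 98.8, 164 and 140 CPM in CT2A and 1933, 869 and 1077 CPM in GL261. It was at 194, 751 and 103 CPM in 005 and at 31.1, 73.6 and 224 CPM in Mut3. Its log2 fold change of 5.97 in GL261 (SE 0.85, adjusted p = 0.00048) was the largest of the 10 genes in any tumor, against 2.70 (SE 0.74, adjusted p = 0.011) in CT2A. Irgm2 was low in naïve brain at 2.65, 2.24 and 1.62 CPM and was at 9.53, 13.8 and 17.1 CPM in CT2A, 115, 72.2 and 106 CPM in GL261, 13.4, 88.1 and 12.3 CPM in 005 and 3.47, 8.81 and 21.8 CPM in Mut3. It was higher in all 4 tumors, from log2 2.37 (SE 0.79, adjusted p = 0.028) in Mut3 to 5.47 (SE 0.87, adjusted p = 0.00088) in GL261. Without any 1 naïve library the call on Irgm2 in Mut3 was lost (adjusted p from 0.057 to 0.084), as was that in CT2A without naïve replicate 3 (adjusted p = 0.059) or CT2A replicate 3 (adjusted p = 0.054).

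The effector Iigp1 was not DE in Mut3. It was at 9.59, 11.96 and 8.65 CPM in naïve brain, 106, 117 and 125 CPM in CT2A, 843, 314 and 574 CPM in GL261, 157, 621 and 68.2 CPM in 005 and 6.27, 14.7 and 34.5 CPM in Mut3. Mut3 libraries overlapped naïve brain, with a log2 fold change of 0.88 (SE 0.70, adjusted p = 0.33), whereas all 3 regulators were DE higher there, of which Irgm2 (log2 1.45, adjusted p = 0.17) and Igtp (1.32, adjusted p = 0.14) were not without Mut3 replicate 3. GL261 gave 5.84 (SE 0.83, adjusted p = 0.00048) and 005 gave 4.81 (SE 0.79, adjusted p = 0.0021). The difference between Iigp1 and the regulators within Mut3 was not tested.

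These counts against naïve brain rest on some libraries more than on others. Without Mut3 replicate 3, 2 of the 10 genes were DE in Mut3 (2608 of 18320 tested genes were DE higher). Without naïve replicate 1, 3 were (2572 of 18501), against 3135 of 17481 tested genes in the fit of all 15 libraries. In CT2A, 7 were DE without naïve replicate 3 or CT2A replicate 3, with Gbp4 among those lost (adjusted p = 0.060 and 0.054, and 0.066 without naïve replicate 1), while the count for GL261 and for 005 was 10 without any 1 library. Of all tested genes, 3028 of 18545 were DE higher in CT2A without naïve replicate 3 and 2582 of 18377 without CT2A replicate 3, against 3319 of 17481. In a fit of naïve brain and 005 alone, 5 genes were DE, and Gbp4, Gbp5, Gbp6, Irgm1 and Irgm2 were not (adjusted p from 0.051 to 0.078). That fit called 219 of 14993 tested genes higher, against 2033 of 17481 in the fit of all 15 libraries. The median of the 10 genes in it was log2 4.61, so calls were lost over all genes and not in these alone. Scaling also matters: the ratio of CPM to TPM was higher in the tumors than in naïve brain by log2 0.81 in GL261, 0.60 in 005, 0.98 in CT2A and 0.82 in Mut3, so folds over naïve brain are smaller by these amounts in TPM. On the log2(TPM + 1) scale the median of all tested genes shifted to between −0.38 and −0.23 in the 4 tumors, Gbp4 and Iigp1 turned to −0.14 and −0.05 in Mut3, and 1 gene was DE there. In that fit 7 genes were DE in CT2A (not Gbp4, Gbp5 and Irgm2), 9 in 005 (not Gbp5) and 10 in GL261. Of all 17481 tested genes, it called 1051 higher in CT2A, 874 in 005, 1040 in GL261 and 951 in Mut3. The median of the 10 genes there was 1.58 in CT2A and 0.50 in Mut3. That fit also used a pseudocount of 1 and limma in place of edgeR. The lost calls therefore cannot be put down to scaling alone.

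The second question was how the tumors differed from each other. GL261 had the highest mean CPM for 9 of the 10 genes, with Gbp4 at 157 CPM on average in 005 and at 146 CPM in GL261. By mean CPM the order in those 9 genes was GL261, 005, CT2A, Mut3 and naïve brain, whereas by the median library CT2A lay above 005 in 6 genes. In mean TPM, 005 also lay above GL261 for Gbp2, and naïve brain above Mut3 for Iigp1 and Gbp4. Against Mut3, all 10 genes were higher in GL261 (11.1% of all tested genes were DE in that direction), from log2 2.73 for Irgm1 (SE 0.55, adjusted p = 0.0050) to 4.96 for Iigp1 (SE 0.79, adjusted p = 0.0014), with no overlap between the groups in any gene, as in 23.8% of all tested genes.

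**Figure D3:**
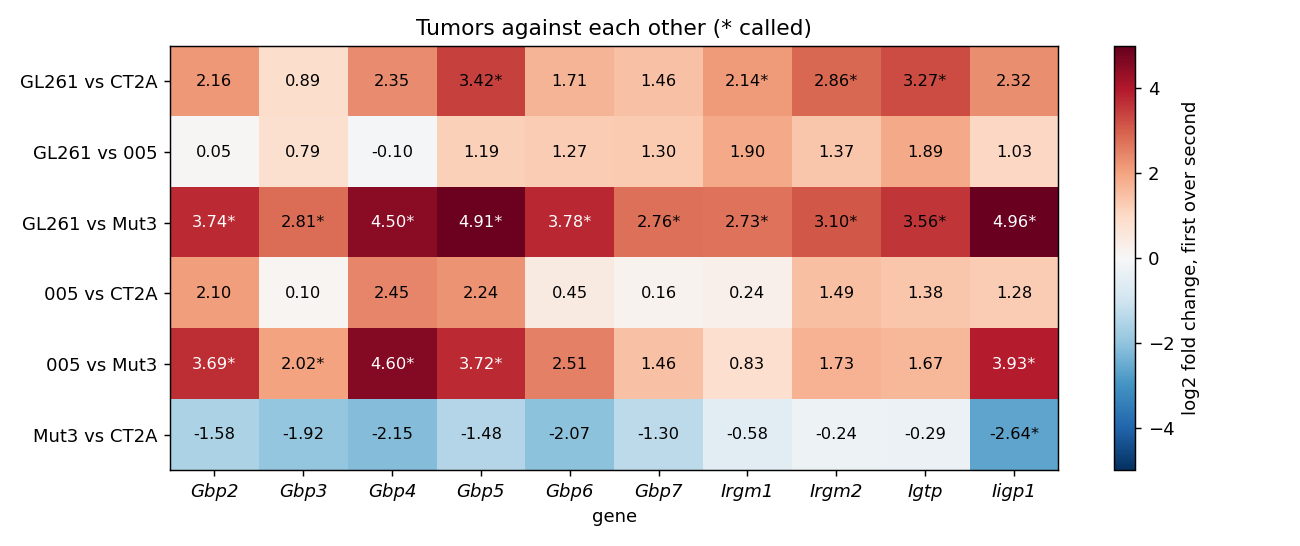
Log2 fold change of each gene (columns) between pairs of tumors (rows, first over second), with DE genes marked by an asterisk. All 10 genes were DE for GL261 over Mut3, 5 for 005 over Mut3, 4 for GL261 over CT2A, 1 for Mut3 against CT2A and none for 005 against CT2A or GL261.

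Against CT2A, 4 genes were higher in GL261, namely Gbp5 (log2 3.42, SE 0.84, adjusted p = 0.023), Igtp (3.27, SE 0.75, adjusted p = 0.015), Irgm2 (2.86, SE 0.74, adjusted p = 0.028) and Irgm1 (2.14, SE 0.53, adjusted p = 0.024), where 3.62% of all tested genes were DE higher. The 4 include all 3 IRG regulators, but Gbp4, Iigp1 and Gbp2 had larger folds than Irgm1 without a call. All GL261 libraries lay above all CT2A libraries in each of the 10 genes, as in 19.0% of all tested genes. The other genes did not pass, with Gbp4 at 2.35 (SE 0.73, adjusted p = 0.062), Iigp1 at 2.32 (SE 0.70, adjusted p = 0.055) and Gbp2 at 2.16 (SE 0.77, adjusted p = 0.10). Gbp6 was at 1.71 (SE 0.85, adjusted p = 0.235), Gbp7 at 1.46 (SE 0.61, adjusted p = 0.16) and Gbp3 lowest at 0.89 (SE 0.60, adjusted p = 0.38). By DESeq2, Gbp4, Iigp1 and Gbp2 were DE (adjusted p = 0.0145, 0.0122 and 0.0406), where 993 of 18996 tested genes were DE higher. The count of 4 fell to 0 without any 1 of the 3 CT2A libraries or without GL261 replicate 1 and to 1 without GL261 replicate 3, and rose to 7 without 005 replicate 2 or 005 replicate 3, which share the estimate of the spread. Over all tested genes, the 632 of 17481 DE higher became 514 of 18375, 268 of 18588 and 265 of 18377 without CT2A replicates 1, 2 and 3. They became 340 of 18524 and 341 of 18508 without GL261 replicates 1 and 3, and 765 of 18308 and 1071 of 18300 without 005 replicates 2 and 3. The median of the 10 genes in these fits stayed between log2 1.90 and 2.28, so calls moved over all genes and not in these alone.

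The 005 tumors spread widely between mice, and few calls were made against CT2A or GL261. Against CT2A no gene was DE by edgeR, where 1.99% of all tested genes were DE higher and 2.12% lower. By DESeq2, 2 of the 10 genes were DE higher, beside 935 higher and 827 lower of 17750 tested genes. At an unadjusted p under 0.05 in edgeR there were 3, for which no share over all genes is given. Without 005 replicate 3, 3 genes were DE higher (400 of 18300 tested genes were), and without 005 replicate 1, 1 was (394 of 18334). The nearest was Gbp4 at log2 2.45 (SE 0.73, adjusted p = 0.071), whose lowest 005 library (32.3 CPM) lay above the highest of CT2A (30.5 CPM). Gbp3, Gbp6, Gbp7 and Irgm1 lay between log2 0.10 and 0.45, and 7 of the 10 genes turned lower than CT2A without 005 replicate 2 (Gbp3, Gbp5, Gbp6, Gbp7, Irgm1, Irgm2 and Iigp1, from −1.20 for Gbp3 to −0.04 for Iigp1). Between GL261 and 005 no gene was DE by edgeR, where 1.73% of all tested genes were DE higher and 0.887% lower. By DESeq2, 1 of the 10 genes was DE higher, beside 510 higher and 433 lower of 18372 tested genes. At an unadjusted p under 0.05 in edgeR there were 3, again with no share over all genes. Irgm1 (log2 1.90, SE 0.53, adjusted p = 0.079) and Igtp (1.89, SE 0.71, adjusted p = 0.21) were the furthest apart, and Gbp2 (0.05, SE 0.74) and Gbp4 (−0.10, SE 0.69) were the closest. Without 005 replicate 2, 5 of the genes were DE higher in GL261, as were 261 of 18308 tested genes.

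Against Mut3, 5 genes were higher in 005 (14.0% of all tested genes were DE in that direction), namely Gbp4 (log2 4.60, SE 0.81, adjusted p = 0.0025), Iigp1 (3.93, SE 0.75, adjusted p = 0.0037), Gbp5 (3.72, SE 0.87, adjusted p = 0.010), Gbp2 (3.69, SE 0.83, adjusted p = 0.0083) and Gbp3 (2.02, SE 0.62, adjusted p = 0.033). The groups did not overlap in the first 4 of these, as in 18.3% of all tested genes, and overlapped in Gbp3. The 5 genes not DE were the 3 IRG regulators and 2 GBP genes, Gbp6 and Gbp7. Gbp6 was at log2 2.51 (SE 0.88, adjusted p = 0.055, and 0.019 by DESeq2) and Gbp7 at 1.46 (SE 0.61, adjusted p = 0.10). Irgm1 was at 0.83 (SE 0.52, adjusted p = 0.27), Irgm2 at 1.73 (SE 0.71, adjusted p = 0.096) and Igtp at 1.67 (SE 0.70, adjusted p = 0.10). In a fit of 005 and Mut3 alone Gbp4 was DE and the other 4 were not (adjusted p from 0.053 for Iigp1 to 0.15 for Gbp3). The count was 3 without 005 replicate 2 (2318 of 18308 tested genes were DE higher). It was 9, all but Irgm1, without 005 replicate 3 (1763 of 18300) or Mut3 replicate 3 (1549 of 18320). Between Mut3 and CT2A, Iigp1 alone was DE, lower in Mut3 at log2 −2.64 (SE 0.71, adjusted p = 0.024), where 6.61% of all tested genes were DE lower. The Mut3 libraries lay below all CT2A libraries in 7 genes (the 6 GBP genes and Iigp1), as in 19.9% of all tested genes, while Irgm1, Irgm2 and Igtp overlapped at −0.58 (SE 0.51), −0.24 (SE 0.70) and −0.29 (SE 0.69). The call on Iigp1 was lost without CT2A replicate 2 or 3 or without Mut3 replicate 1 or 2, and 4 genes were DE without 005 replicate 2, 3 without 005 replicate 3 or Mut3 replicate 3 and 2 without 005 replicate 1.

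Per transcript length, the summed level of the 10 genes was 16.6, 18.2 and 16.1 TPM in naïve brain, 85.0, 86.3 and 84.0 TPM in CT2A and 596, 345 and 493 TPM in GL261. It was 110, 504 and 84.2 TPM in 005 and 19.4, 41.3 and 83.7 TPM in Mut3. CT2A tumors were nearly alike, and 005 replicate 2 reached the level of GL261. The make-up of the sum differed between tumors, as a description without a test. Igtp made up 40.5%, 39.2% and 38.03% of it in GL261 and 17.8%, 23.5% and 20.7% in CT2A. Gbp3 showed the opposite order, at 5.57%, 6.08% and 5.66% in GL261 and 16.1%, 15.7% and 15.5% in CT2A. Gbp2 took 35.1%, 43.7% and 26.1% in 005, more than in any library of another group, where it took at most 24.7%. Iigp1 took 1.37%, 1.55% and 1.73% in Mut3 and between 3.27% and 6.51% in all other libraries. Gbp2, Igtp and Irgm1 held the 3 largest shares in every library, and Gbp4, Gbp5 and Irgm2 each stayed below 3% of the sum.

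**Figure D4:**
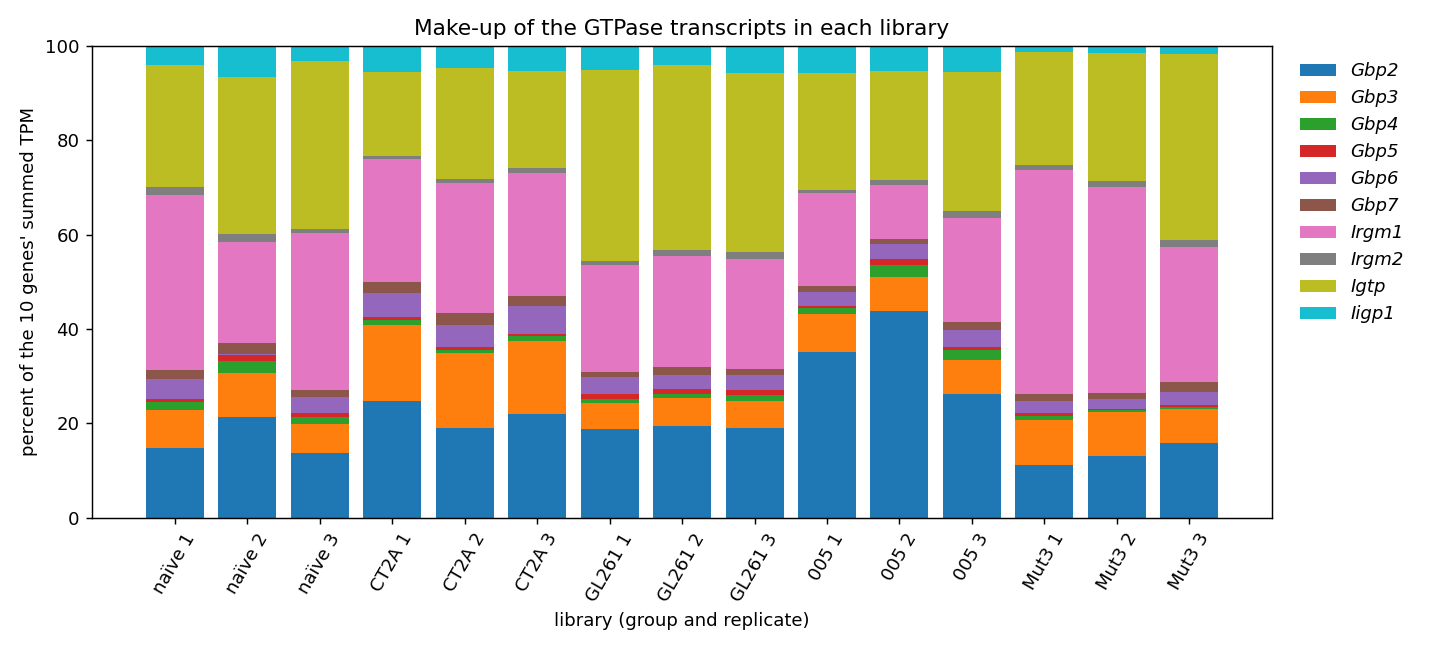
Share of each gene in the summed TPM of the 10 GTPase genes (bars from 0% to 100%) in each library. Igtp takes 38.03% to 40.5% in GL261, Gbp2 26.1% to 43.7% in 005 and Iigp1 1.37% to 1.73% in Mut3.

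The pathway upstream was examined with a list of 12 genes of interferon-γ signalling, of which 7 were higher in GL261, 8 in 005, 6 in CT2A and 2 in Mut3 against naïve brain. Ifng, the ligand itself, had few counts, with 0, 1 and 1 in naïve brain, 8, 2 and 5 in CT2A, 15, 1 and 17 in GL261, 12, 79 and 24 in 005 and 0, 3 and 1 in Mut3. GL261 replicate 2 thus had 1 count of Ifng beside 345 TPM of the 10 GTPase genes, whereas 005 replicate 2 had the highest count of Ifng and the highest GTPase sum of its group. Irf1 was higher by log2 2.32 (SE 0.61, adjusted p = 0.0090) in CT2A, 4.25 (SE 0.66, adjusted p = 0.00078) in GL261 and 3.62 (SE 0.64, adjusted p = 0.0028) in 005, and was at 1.49 (SE 0.60, adjusted p = 0.060) in Mut3. In the same list 2 genes were lower in Mut3, the receptor chain Ifngr2 (log2 −1.19, SE 0.31, adjusted p = 0.0072) and the kinase Jak1 (−1.45, SE 0.35, adjusted p = 0.0048). The feedback inhibitor Socs1 was DE higher in CT2A, GL261 and 005, from naïve levels of at most 0.249 CPM, which lie below the floor, so no fold is given.

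Other targets of interferon-γ, a list of 12 genes with chemokines and antigen presentation genes, were higher in 8, 11, 10 and 8 genes in CT2A, GL261, 005 and Mut3, and 1 (Ido1) was lower in Mut3. In Mut3 this list had a median of log2 2.39, beside 2.21 for the GTPase genes. Of 6 inflammasome genes, with which GBPs act, 4, 5, 3 and 1 were higher. The caspase Casp4, which senses bacterial lipopolysaccharide, was higher in all 4 tumors, by log2 4.21, 5.16, 3.71 and 3.03. Of 10 genes for ATG8 proteins and the enzymes that conjugate them, a system needed to target these GTPases to membranes, 1 (Map1lc3b, an ATG8 protein) was higher in CT2A, GL261 and Mut3, and 3, 2 and 3 were lower, with no call in 005 by edgeR and 3 genes at an unadjusted p under 0.05 there. Of 10 large GTPases that are not interferon-induced, such as dynamins and atlastins, 1 (Atl3) was higher in CT2A, GL261 and 005, and 5, 2, 0 and 6 were lower in CT2A, GL261, 005 and Mut3.

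Type I interferon targets, a list of 20 genes, gave other counts than the GTPase genes across the tumors, although each correlated with the mean of the GTPase genes over the 15 libraries, from r = 0.419 for Cmpk2 to r = 0.887 for Oas3. Against naïve brain, 18 were higher in CT2A (median log2 3.81) and 16 in GL261 (3.73), and 10 in 005 (2.04) and 3 in Mut3 (0.66), where 1 (Cmpk2) was lower. Between GL261 and CT2A the list had a median of −0.03 and 1 gene higher (Oas3), where the GTPase genes had a median of 2.24 and 4 higher. Between 005 and CT2A the list had a median of −1.74 with 5 genes lower (Ifit1, Ifit3, Rsad2, Rtp4 and Bst2), where the GTPase genes had a median of 1.33 with none called, and of −0.16 without 005 replicate 2. The type I targets were also highest in that library, with a mean log2 CPM of 3.19, 4.69 and 2.82 in the 005 tumors. Their median without it is not given here, so the −0.16 has no matching value. Within a library, the mean log2 CPM of the GTPase genes exceeded that of the type I targets by 1.02, 0.82 and 0.86 in CT2A, by 3.32, 2.95 and 3.08 in GL261 and by 3.14, 3.92 and 2.65 in 005. In Mut3 it exceeded it by 2.13, 1.44 and 3.31 and in naïve brain by 1.09, 0.96 and 1.49. The gap in CT2A (0.82 to 1.02) thus overlapped the lower end of that in naïve brain (0.96 to 1.49). In GL261 and 005 it lay above naïve brain with no overlap, including the 005 libraries other than replicate 2. In Mut3 it lay within the naïve range in replicate 2 and above it in replicates 1 and 3. CPM are not per length, so only differences in the gap between libraries can be read, and the difference between the lists was not tested.

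**Figure D5:**
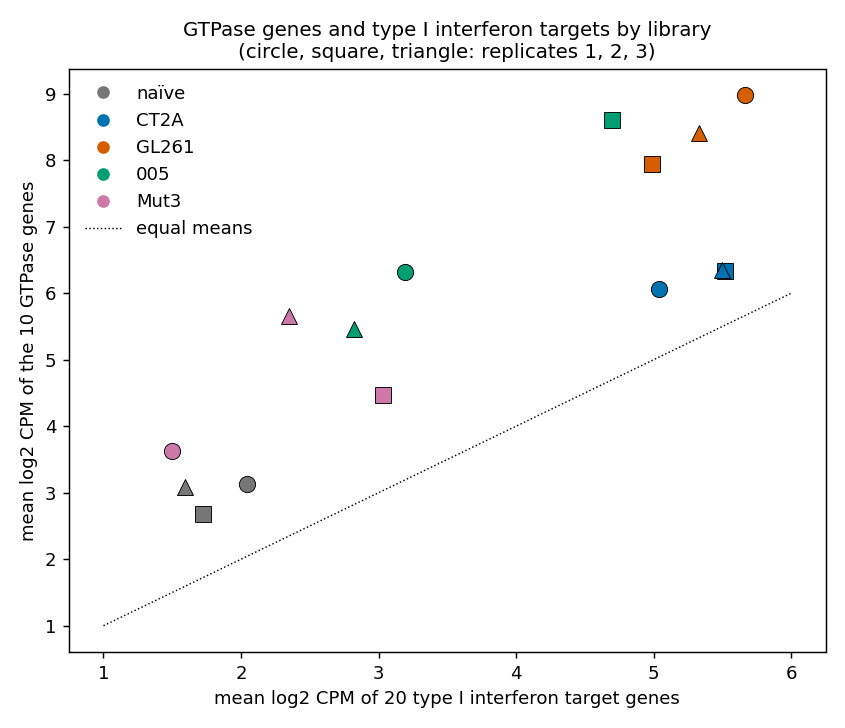
Mean log2 CPM of the 10 GTPase genes (vertical) against that of 20 type I interferon target genes (horizontal) in each library; colours are groups, marker shapes are replicates and the dotted line marks equal means. CT2A and GL261 share the horizontal range near 5 to 5.66 and lie 0.82 to 1.02 and 2.95 to 3.32 above the line.

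Other genes of the GBP and IRG families mostly followed the 10 genes. Of 15 listed, 13 were tested, and 11 were higher in GL261, 10 in 005, 6 in CT2A and 3 in Mut3 (Tgtp2, Gm12250 and Gm4951), with median log2 fold changes of 5.20, 5.01, 2.32 and 1.54. Irgq was DE lower in CT2A and in Mut3. Gm12250, annotated as a processed pseudogene on chromosome 11 upstream of Igtp, rose the most in GL261, by log2 8.46 (SE 1.08, adjusted p = 0.00025) from a naïve mean of 1.21 CPM. Its naïve values were 1.84, 0.996 and 0.811 CPM, the last at the floor of 3 counts, so the size of this fold is uncertain. Near-identical copies limit this list: in naïve brain, the neighbours Tgtp1 and Tgtp2 took 115 and 0 counts in replicate 1, 0 and 102 in replicate 2 and 19 and 93 in replicate 3, while their sums were 115, 102 and 112. The single values of Tgtp1 and Tgtp2 are therefore uncertain, and their sum was 309 to 4510 counts in Mut3 and 6000 to 10732 in GL261.

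Markers of leukocytes were higher, like the GTPase genes, in CT2A, GL261 and 005, but not in Mut3. Of 6 T cell markers, 5 were tested, and 4 were higher in CT2A, GL261 and 005 and none in Mut3, where Cd4 was lower, as in CT2A. Their summed level was 4.37 to 10.99 TPM in naïve brain, 20.1 to 40.1 in CT2A, 64.9 to 132 in GL261, 61.1 to 380 in 005 and 5.47 to 15.5 TPM in Mut3. Of 6 leukocyte and macrophage markers, 5 were higher in CT2A, GL261 and 005 and none in Mut3, where Itgam (log2 −1.56) and Csf1r (−1.15) were DE lower, with sums of 81.1 to 86.4 TPM in naïve brain, 105 to 128 in CT2A, 235 to 356 in GL261, 197 to 564 in 005 and 23.9 to 77.4 TPM in Mut3. No marker of these lists was at 0 in all 3 libraries of a group, and of 4 NK cell markers Ncr1 was at 0 in all naïve libraries. In 005 the T cell sum was 61.1, 380 and 196 TPM, highest in replicate 2 as for the GTPase genes, while replicate 3 lay above replicate 1 in T cell markers and below it in the GTPase sum. In Mut3 the leukocyte and macrophage sums in TPM lay below every naïve library, while the median log2 fold change of that list in CPM was 0.34, beside 2.21 for the GTPase genes. By Mut3 library, the leukocyte and macrophage sum was 23.9, 60.2 and 77.4 TPM and the T cell sum 6.36, 5.47 and 15.5 TPM. Both were highest in replicate 3, as were the GTPase genes. Markers of brain cells were lower in some tumors. Neuron markers were DE lower in CT2A and Mut3 (5 of 5 in each), and in GL261 all 5 lay below naïve brain with none DE. Microglia markers were lower in Mut3 (4 of 6) and CT2A (2 of 6), astrocyte markers in both (2 of 4 in each), and oligodendrocyte markers in Mut3 (4 of 4) and CT2A (1 of 4). Some went the other way: 1 astrocyte marker was DE higher in Mut3 (log2 2.57) and 1 in GL261 (2.56). In GL261, 1 microglia marker was also DE higher (log2 1.10). The part of these cell types in the GTPase levels was not tested.

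The 10 genes varied together over the libraries. The correlation of each gene with the mean of the others, in log2 CPM, ranged from 0.924 for Gbp6 to 0.982 for Gbp2 over 15 libraries, and from 0.929 for Irgm1 to 0.98 for Gbp6 over the 12 tumors. These values describe libraries that share group differences. Of all other tested genes, those most like the mean of the 10 genes over the 15 libraries were Gm12250 (r = 0.987), Gm4951 (0.982), Irf1 (0.977), Nmi (0.973) and Ifi47 (0.973), of which Gm12250, Gm4951 and Ifi47 belong to the IRG family. Over the 12 tumors alone, Gm4951 (0.986), Gm12250 (0.977), Tgtp2 (0.97), Ifi47 (0.969) and Gbp2b (0.966) led, all of the GBP or IRG families.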

How the data were processed

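RNA from naïve brain and from CT2A, GL261, 005 and Mut3 tumors was sequenced by the authors, who aligned reads with STAR v2.4.2a to the GENCODE mouse genome and ran Picard and RNA-SeQC. The processing notes also name mm10, Salmon and DESeq2 1.18.1, with no role. The authors deposited expected counts, not normalized between samples, and TPM values, scaled per transcript length and library. Over 4644 well-covered genes the ratio of count to TPM was a gene factor times a library factor (largest log2 residual 9.6e-10), so these are not independent measurements. The quantifier and annotation release are not given in the sources used here.

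Of 46679 gene identifiers, 46201 matched GENCODE M21. The rounded counts entered edgeR 4.0.16 under R 4.3.3 (filterByExpr, TMM, quasi-likelihood fit on all 15 libraries, a mean per group, no covariate), with Benjamini-Hochberg adjustment over 17481 genes. The steps were tested on simulated counts. Samples were grouped by their labels; the study names 3 mice per group, and the labels name no batch. No pair of libraries within a group was a repeated deposit. Log2 CPM had a prior count of 2, and the pseudocount for TPM was 1. All 10 genes are named in each comparison, other genes by list, and the likeness ranking is the Pearson correlation with the mean z-score of the 10 genes. The genes and lists were chosen with earlier results of these data known. Alternatives were DESeq2 1.42.0, plain library sizes, no filter on low counts or a minimum of 10 counts in all samples, fits restricted to the compared groups, a replicate block, log2(TPM + 1) with limma 3.58.1, and each library left out. Protein sequences were not used here. Some genotype details and the values of 1 listed signalling gene are not reported here.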

Additional observations from a re-analysis of the deposited data

How the results depend on the processing

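Counts of DE genes among the 10 depended on the fit, and the causes were not tested. DESeq2 gave 7 for GL261 against CT2A (4 by edgeR), 2 for 005 against CT2A (0), 3 for Mut3 against CT2A (1), 1 for GL261 against 005 (0), 7 for Mut3 against naïve brain (6) and 6 for 005 against Mut3 (5). Over all tested genes, DESeq2 called 993 of 18996, 935 of 17750, 1737 of 19620 (lower), 510 of 18372, 3494 of 21494 and 2939 of 19620, in that order. Without a filter on low counts the counts of the 10 genes were 7, 1, 3, 1, 7 and 6. Of 32244 genes, 694, 504, 1325 (lower), 350, 3084 and 2670 were called. With at least 10 counts in every sample, where 7 of the genes were tested, Mut3 against CT2A gave 2 (615 of 9435 tested genes were lower). A fit of only the groups compared gave 5 for 005 against naïve brain (10), 9 for GL261 against CT2A, 5 for Mut3 against CT2A and 1 for 005 against Mut3 (5). Over all tested genes these fits called 219 of 14993 higher, 1119 of 14924 higher, 1550 of 15202 lower and 584 of 15736 higher. On log2(TPM + 1), CT2A against naïve brain gave 7 (10), 005 9 (10) and Mut3 1 (6), GL261 against CT2A 6, Mut3 against CT2A 0, GL261 against 005 1 and 005 against Mut3 4 (5, with Gbp3 and Gbp5 lost and Gbp6 gained). Of 17481 tested genes, that fit called 1051, 874, 951, 414, 517 (lower), 245 and 684, in the same order.

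With each library left out, the counts were 7 to 10 for CT2A, 10 to 10 for GL261, 10 to 10 for 005 and 2 to 7 for Mut3 against naïve brain, 0 to 7 for GL261, 0 to 3 for 005 and 0 to 4 for Mut3 against CT2A, 0 to 5 for GL261 against 005, 8 to 10 for GL261 and 3 to 9 for 005 against Mut3, and 10 to 10 over all groups. The lowest count for CT2A came without naïve replicate 3 or CT2A replicate 3, that for GL261 against Mut3 without Mut3 replicate 2, and the 3 for 005 against CT2A without 005 replicate 3.

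Replicate numbers did not pair the samples: over 30 same-numbered pairs, deviations correlated at −0.0339 on average (−0.331 to 0.262), and 2 of 15 libraries were closest to their own number. With the replicate block, the counts were 9, 10, 10 and 5 for CT2A, GL261, 005 and Mut3 against naïve brain, 4, 0 and 1 for GL261, 005 and Mut3 against CT2A, 0 for GL261 against 005, and 10 and 4 for GL261 and 005 against Mut3.

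Genes that changed sign were not DE in the fit reported, and ranges with each library left out are given first. In Mut3 against naïve brain these were Gbp4 (−0.3408 to 0.4709, and −0.136 in TPM) and Iigp1 (−0.0453 in TPM). In 005 against CT2A, the lowest value came without 005 replicate 2 for Gbp3 (−1.2026 to 0.5354, −0.0616 with the block and −0.0637 in TPM), Gbp5 (−0.2524 to 2.7318), Gbp6 (−0.9499 to 0.8639), Gbp7 (−0.8383 to 0.5324), Irgm1 (−0.5724 to 0.6014), Irgm2 (−0.0692 to 1.8974) and Iigp1 (−0.0425 to 1.7157). In Mut3 against CT2A, the highest came without Mut3 replicate 1 for Irgm2 (−1.2501 to 0.1413) and Igtp (−1.4727 to 0.1072). In GL261 against 005, Gbp2 ran from −0.4664 to 1.7658, and Gbp4 from −0.5909 to 1.8813 (adjusted p = 0.0481 without 005 replicate 2), with 0.1613 under the block and 0.2913 in TPM. Low counts in naïve brain limit Gbp5 and Irgm2.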
